A study of Mus musculus with 16 samples.

Results

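Transcripts of 9 interferon-stimulated genes, Isg15, Ifit1, Ifit3, Eif2ak2, Bst2, Irf1, Irf7, Irf9 and Stat2, were followed across all libraries by taking the rows with these symbols from the count tables. The tables list 55367 gene symbols, of which 19509 passed a filter on low counts and were tested, and all 9 of these genes were among them. Type I interferons bind a receptor on the cell surface and activate ISGF3, a complex that holds Stat2 and Irf9 and binds interferon-stimulated response elements (ISREs) in the promoters of antiviral genes. Irf1 and Irf7 are transcription factors of the same response, and Irf1 itself is induced through another promoter element, GAS. Isg15, Ifit1, Ifit3, Eif2ak2 (also called PKR) and Bst2 encode effectors, and many cells hold a low level of these transcripts without any added interferon.

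The cells were mIMCD3, a mouse cell line from the inner medullary collecting duct, either wild type (WT) or Nrf2-/-. In the 8 groups of 2 biological replicates, WT cells received the solvent DMSO or 10 μM sulforaphane (SFN), an activator of the transcription factor Nrf2, for 5 h. Each pretreatment was sampled in isosmotic medium, after 1 h in hyperosmotic medium of 600 mOsm, and after 6 h of hyperosmotic stress, which gave the groups WT DMSO isosmotic, WT SFN isosmotic, WT DMSO 1 h, WT SFN 1 h, WT DMSO 6 h and WT SFN 6 h. The Nrf2-/- cells carried CRISPR/Cas9 edits and had all received SFN, and they were sampled in isosmotic medium (Nrf2-/- SFN isosmotic) and after 1 h (Nrf2-/- SFN 1 h). DMSO-treated Nrf2-/- cells are not analysed here, and whether the Nrf2-/- cells were 1 clone is not given in the sources used here. Those cells had been transduced with lentiviral Cas9 and guide vectors and selected with antibiotics, so that genotype and this history cannot be told apart. No group received interferon.

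Total counts lay between 34484296 and 50774875 per library. Nfe2l2, the gene of Nrf2, had 2496 to 5013 counts in the WT libraries and 386 to 433 in the Nrf2-/- libraries. With SFN in isosmotic WT cells, 8 of 10 Nrf2 target genes rose, against 1.09% of all genes tested. Epithelial transcripts such as Krt8, Cdh1 and Epcam were abundant, whereas the collecting duct channel Aqp2 had at most 11 counts in any library. Of 20 collecting duct and epithelial markers, 4 to 7 had at most 3 counts in both libraries of a group. Of the 14 tested, 4 were higher and 4 lower in isosmotic Nrf2-/- than in WT SFN cells, beside 15.7% and 18.4% of all genes. Epcam (log2 fold change 2.54) was among the higher and Pax2 (-2.41) among the lower. Of 12 leukocyte markers, 4 to 9 had at most 3 counts in both libraries of a group, and Tyrobp had 0 counts throughout. The summed level of these 12 markers was 3.93 to 10.6 CPM (counts scaled by library size) in the 12 libraries before 6 h and 27.1 to 29.5 CPM in the 4 libraries at 6 h, where Cd79a, Ptprc and Itgam had 74 to 339 counts. The 9 fibroblast and endothelial markers summed to 1.62 to 5.34 CPM before 6 h and to 10.5 to 12 CPM at 6 h. The 20 collecting duct and epithelial markers rose as well, from 2214 to 3697 CPM before 6 h to 5073 to 5444 CPM at 6 h. The part of these markers in the results at 6 h was not tested.

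The libraries of Nrf2-/- SFN 1 h stood apart from each other. The biological coefficient of variation, the relative spread between libraries beyond counting error, was 0.348 for this pair and 0.0393 to 0.128 for the other 7 pairs. Isg15 had 144 and 41 counts in replicates 1 and 2, and Bst2 had 2756 and 649. Genes with less than 1 kb of exons, the class of Isg15 (756 bases) and Bst2 (903 bases), were lower in replicate 2 with a median log2 difference of -0.28, and genes with more than 8 kb of exons were higher with a median of 0.34. In the other 7 pairs the medians of both classes lay between -0.15 and 0.12. This pair also enters the spread that all tests below share.

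**Figure D1:**
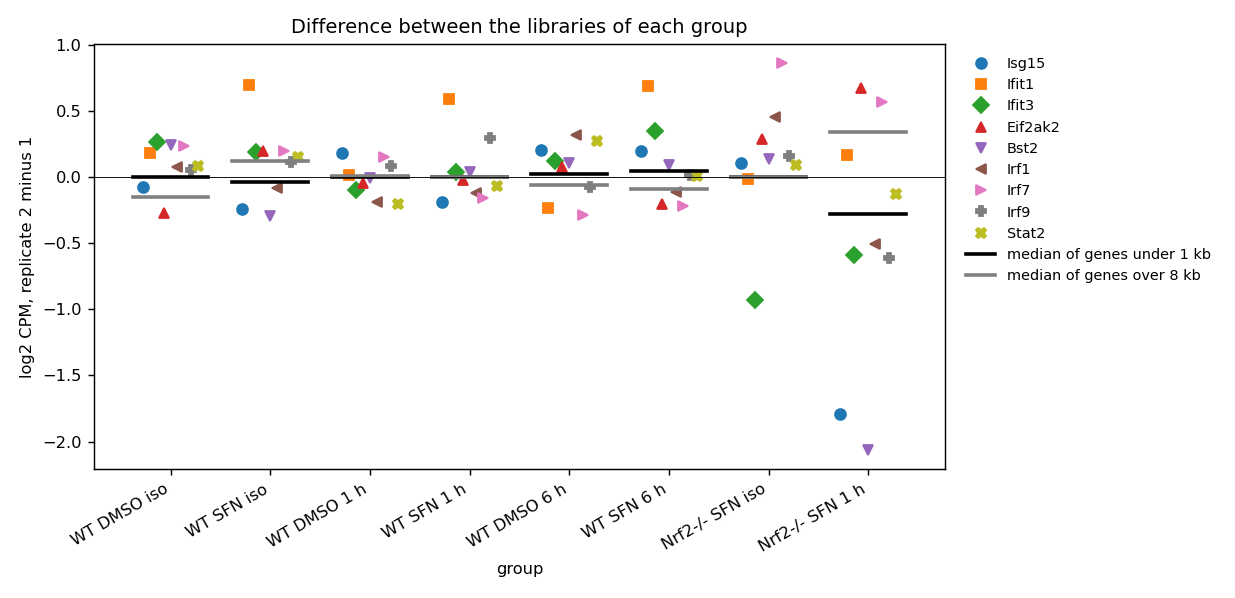
Difference in log2 CPM between replicate 2 and replicate 1 of each group, with one symbol per gene and horizontal bars for the median of all tested genes with under 1 kb (black) and over 8 kb (grey) of exons. In Nrf2-/- SFN 1 h, Isg15 and Bst2 lie lowest and the bars lie at -0.28 and 0.34.

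The promoters were searched for the letters of the ISGF3 element. A missing match in the window searched does not show that a gene lacks the element. RefSeq promoter sequences (GRCm38.p6, 250 bases before and 50 bases after the start) were found for all 9 genes and searched on both strands for the ISRE core, GAAA on either side of any 2 bases. It was present in 6 of the 9 genes, Isg15, Ifit1, Ifit3, Bst2, Stat2 and Eif2ak2, and in 3.99% of all 27025 genes with a promoter of this length. The stretches that hold the matches are shown with the match in capitals, 5′ to 3′ on the strand of the gene, so that a match with TTTC is the core on the opposite strand.
Isg15: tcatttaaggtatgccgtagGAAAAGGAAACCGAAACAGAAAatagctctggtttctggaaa
Ifit1: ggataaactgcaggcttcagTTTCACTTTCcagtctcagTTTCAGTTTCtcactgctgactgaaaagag
Ifit3: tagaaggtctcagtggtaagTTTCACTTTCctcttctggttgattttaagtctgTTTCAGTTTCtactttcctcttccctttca
Bst2: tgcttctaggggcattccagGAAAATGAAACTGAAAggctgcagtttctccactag
Stat2: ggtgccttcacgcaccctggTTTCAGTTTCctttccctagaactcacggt
Eif2ak2: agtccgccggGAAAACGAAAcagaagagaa
These lie at chr4:156200855-156200916 (minus strand) for Isg15, chr19:34640765-34640833 (plus) for Ifit1, chr19:34583353-34583436 (plus) for Ifit3, chr8:71537567-71537622 (minus) for Bst2, chr10:128270256-128270305 (plus) for Stat2 and chr17:78882535-78882564 (minus) for Eif2ak2. Isg15 held 3 overlapping matches, Ifit1 and Ifit3 held 2 separate matches each, Bst2 held 2 overlapping matches, and the match of Eif2ak2 began at base 19 past the annotated start, in the transcribed part.

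Irf1, Irf7 and Irf9 held no match to the ISRE core in these windows. Irf1 instead held a GAS match (TTCNNNGAA), which is found in 9.55% of all genes and also in Eif2ak2 and Bst2. Its stretch, at chr11:53769904-53769952 on the plus strand, is the following.
Irf1: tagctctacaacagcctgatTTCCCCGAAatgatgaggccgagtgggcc
The antioxidant response element of Nrf2, searched as TGACNNNGC, matched only Irf7 among the 9 genes and 14% of all genes. A loose NF-κB site (GGG, any 5 bases, CC) matched 7 of the 9 genes and 53.5% of all genes, the NFAT5 core TGGAAA followed by any 2 bases matched 4 and 23.8%, and the ISRE core with 3 spacer bases in place of 2 matched 1, Ifit3, and 3.17%. The ISRE and spacer motifs can overlap, and a match describes the letters only.

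In untreated cells the transcripts differed widely in level. Per kilobase of exon, WT DMSO isosmotic cells held 80 ± 9.42 CPM of Bst2 (mean ± SD, n = 2 here and below), which encodes tetherin, a protein that holds budding virus at the cell surface. Isg15, a ubiquitin-like protein, followed at 12 ± 0.418, and Eif2ak2, the kinase that double-stranded RNA activates, at 9.06 ± 1.21. Ifit3 (5.08 ± 0.661) and Irf1 (4.94 ± 0.176) overlapped, and Stat2 (4.13 ± 0.176), Irf9 (2.55 ± 0.0578), Ifit1 (1.02 ± 0.0928) and Irf7 (0.59 ± 0.0676) each lay below the one before. Length here was all bases covered by any annotated exon, which for Irf7 (3776 bases) is the whole span of the gene. The order of these genes depends on that length and may differ for the transcripts that the cells make. The interferon genes themselves were almost silent, with 10 and 6 counts over 21 ligand genes in the WT DMSO isosmotic libraries.

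**Figure D2:**
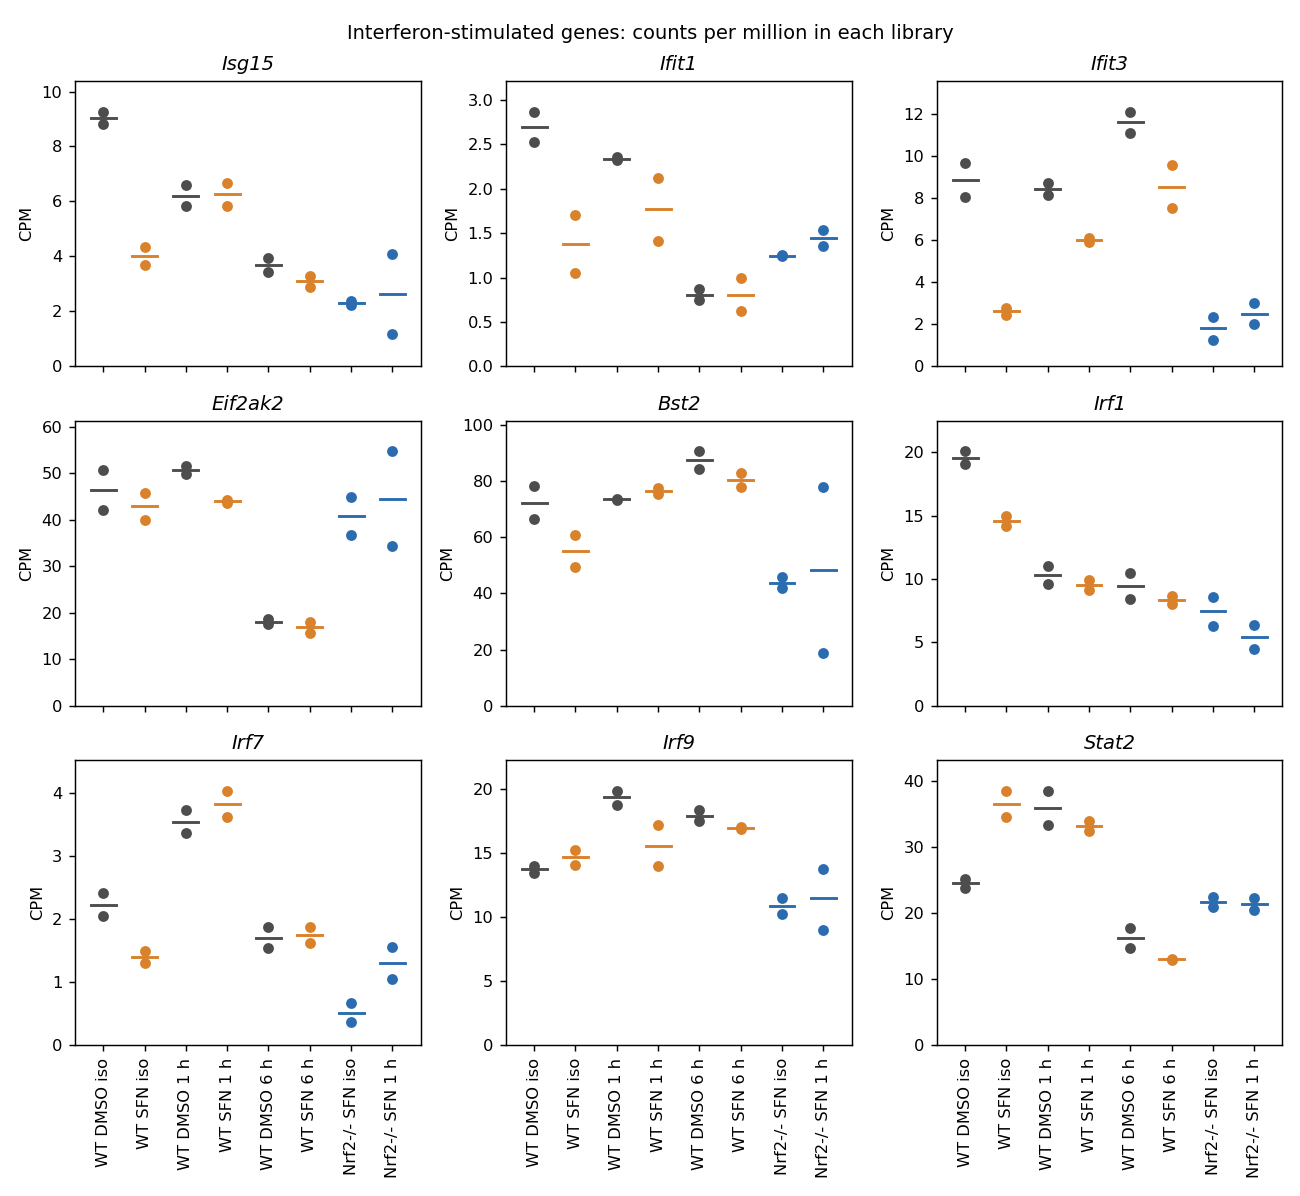
CPM of each gene in the 16 libraries (points) with the mean of each group (bars), in grey for DMSO and orange for SFN in WT cells and in blue for Nrf2-/- cells; each vertical axis starts at 0. Isg15 and Ifit3 lie low in WT SFN isosmotic, Eif2ak2 and Stat2 are lowest at 6 h, and the libraries of Nrf2-/- SFN 1 h are far apart for Isg15 and Bst2.

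The first comparison asked what SFN alone did in isosmotic WT cells. Ifit3 fell and Stat2 rose, 2 of the 9 genes at an adjusted p under 0.05 with edgeR, against 2.84% of all genes tested. Ifit3, whose protein joins Ifit1 in binding viral RNA, stood at 8.05 and 9.68 CPM with DMSO and at 2.44 and 2.78 CPM with SFN. Both SFN libraries lay below both DMSO libraries, a 3.39-fold decrease (log2 fold change -1.76, SE 0.26, adjusted p = 0.0013 by edgeR). The call held in each of 12 alternative settings, with log2 values from -1.88 to -1.62. Stat2, a subunit of ISGF3, was at 23.8 and 25.2 CPM with DMSO and at 34.6 and 38.5 CPM with SFN. It thus moved against Ifit3, with no overlap between the groups (log2 fold change 0.58, SE 0.12, adjusted p = 0.0203 by edgeR), and the call held in 8 of 12 settings but was lost when any 1 of the 4 libraries was left out (adjusted p from 0.0581 to 0.233, 1 gene called).

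Isg15 and Ifit1 lay lower with SFN without passing the test. Isg15 was at 9.27 and 8.82 CPM with DMSO and at 4.34 and 3.67 CPM with SFN. The groups did not overlap (log2 fold change -1.18, SE 0.35, adjusted p = 0.0947 by edgeR), and Isg15 passed in 5 of 12 settings, with adjusted p from 9.70e-05 to 0.502. Ifit1, which binds foreign RNA ends, was at 2.53 and 2.87 CPM with DMSO and at 1.05 and 1.7 CPM with SFN (log2 fold change -0.96, SE 0.33, adjusted p = 0.158 by edgeR). The remaining genes had log2 values of -0.66 (Irf7), -0.43 (Irf1), -0.39 (Bst2), -0.11 (Eif2ak2) and 0.10 (Irf9). The median over the 9 genes was -0.43, beside 0 over all genes tested. By exon length, the median of all genes was -0.10 under 1 kb and -0.10 at 1 to 2 kb, the class of Ifit3. It was -0.028 at 2 to 4 kb, 0.036 at 4 to 8 kb, the class of Stat2, and 0.13 over 8 kb. The part of this trend in the changes of the 9 genes was not tested.

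More genes passed in fits with fewer libraries, among the 9 and among all genes. When replicate 2 of Nrf2-/- SFN 1 h was left out, a choice made after the data were seen, 13% of all genes and 4 of the 9 passed in this comparison, Ifit3, Stat2, Isg15 (adjusted p = 9.70e-05 by edgeR) and Bst2 (log2 fold change -0.39, adjusted p = 0.00439 by edgeR). With the 12 WT libraries alone, 15.2% of all genes and 5 of the 9 passed, these 4 and Irf1 (log2 fold change -0.41, adjusted p = 0.0382 by edgeR).

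Under hyperosmotic stress SFN made no difference that the test could detect in these genes. After 1 h, 0 of the 9 genes passed by edgeR, 0 at an unadjusted p under 0.05 and 0 by DESeq2, against 0.0923% of all genes by edgeR. Ifit3 was at 8.69 and 8.13 CPM with DMSO and at 5.9 and 6.07 CPM with SFN, still without overlap (log2 fold change -0.49, SE 0.25). Isg15 was at 5.82 and 6.6 CPM with DMSO and at 6.68 and 5.85 CPM with SFN, and the groups overlapped (log2 fold change 0.013, SE 0.34). With the 4 libraries of this comparison alone, where 4.95% of all genes were called, Eif2ak2 passed (log2 fold change -0.21, adjusted p = 0.0377 by edgeR). After 6 h, 0 of the 9 genes passed by edgeR, 1 (Stat2) at an unadjusted p under 0.05 and 0 by DESeq2, against 0.041% of all genes by edgeR, and the log2 values ran from -0.44 (Ifit3) to 0.03 (Irf7).

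Whether the SFN effect itself changed with stress was tested as an interaction. For 6 h against isosmotic, Stat2 was the only 1 of the 9 genes that passed, against 0.759% of all genes (0.595% above and 0.164% below 0). Its SFN effect went from 0.58 in isosmotic cells to -0.33 at 6 h (log2 difference -0.90, SE 0.18, adjusted p = 0.0268 by edgeR), and the call held in 9 of 16 settings. It was lost without either library of WT DMSO isosmotic, WT SFN isosmotic or WT SFN 6 h, or without replicate 2 of WT DMSO 6 h (adjusted p from 0.0555 to 0.206, 0 genes called). The SFN effect on Ifit3 differed by 1.32 (SE 0.35, adjusted p = 0.143 by edgeR) and passed in 5 of 16 settings. For 1 h against isosmotic, 0 genes passed by edgeR, 3 at an unadjusted p under 0.05 (Isg15, Ifit3 and Stat2) and 2 by DESeq2, against 0.559% of all genes by edgeR (0.487% above and 0.0718% below 0). The differences of these 3 genes were 1.27 for Ifit3 (SE 0.35, adjusted p = 0.209 by edgeR), 1.19 for Isg15 (SE 0.49, adjusted p = 0.572) and -0.69 for Stat2 (SE 0.17, adjusted p = 0.142), and all 3 passed without replicate 2 of Nrf2-/- SFN 1 h, where 2.74% of all genes did.

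**Figure D3:**
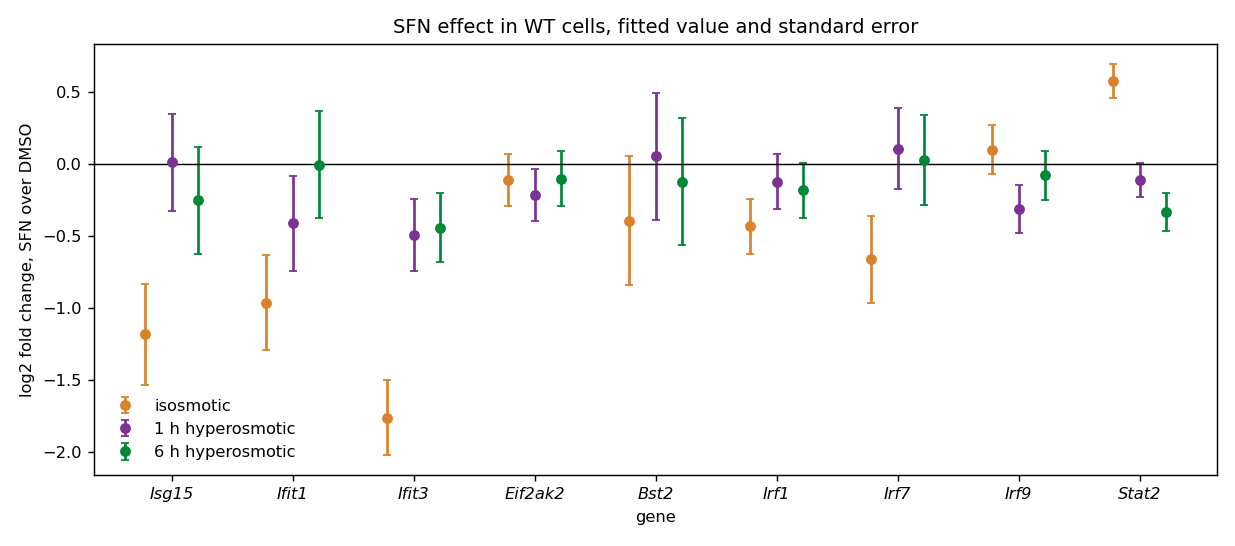
Fitted log2 fold change of SFN over DMSO in WT cells for each gene, in isosmotic medium (orange) and after 1 h (purple) and 6 h (green) of hyperosmotic stress; bars are standard errors of the fit. Ifit3 lies at -1.76 in isosmotic medium and at -0.49 and -0.44 under stress, and Stat2 goes from 0.58 to -0.33.

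The next comparisons asked how hyperosmotic stress changed these genes over time. After 1 h in DMSO-treated WT cells, Irf1 fell and Stat2 rose, 2 of the 9 genes, against 11.2% of all genes tested (7.1% higher and 4.11% lower). Irf1 was at 19.1 and 20.1 CPM in isosmotic cells and at 11 and 9.64 CPM at 1 h, with no overlap (log2 fold change -0.92, SE 0.19, adjusted p = 0.0055 by edgeR). Stat2 was at 38.4 and 33.3 CPM at 1 h, above both isosmotic libraries (log2 fold change 0.55, SE 0.12, adjusted p = 0.0104 by edgeR). Leaving out any 1 of the 4 libraries left 1 gene called, Stat2 without replicate 2 of WT DMSO 1 h (Irf1 then at adjusted p = 0.0687) and Irf1 without each of the others (Stat2 then at 0.0566 to 0.136). Irf9, which gives ISGF3 its DNA contact, had 13.5 and 14 CPM before and 18.8 and 19.9 CPM after 1 h and did not pass (log2 fold change 0.49, SE 0.17, adjusted p = 0.0828 by edgeR). With the 12 WT libraries alone, where 22.9% of all genes were called, Irf9 (adjusted p = 0.0031 by edgeR) and Isg15 (log2 fold change -0.53, adjusted p = 0.0369) passed too.

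After SFN, 2 of the 9 genes rose in the same hour of stress, Ifit3 and Irf7, against 9.52% of all genes called (5.94% higher and 3.58% lower). Ifit3 went from 2.44 and 2.78 CPM to 5.9 and 6.07 CPM, which is below its level in stressed DMSO cells (log2 fold change 1.19, SE 0.26, adjusted p = 0.00936 by edgeR). The WT SFN isosmotic libraries also enter its fall with isosmotic SFN, so that the fall and this rise are not independent. Irf7, a factor that drives interferon gene transcription, went from 1.31 and 1.5 CPM to 4.04 and 3.62 CPM (log2 fold change 1.44, SE 0.30, adjusted p = 0.00647 by edgeR). In DMSO cells Irf7 was at 2.05 and 2.41 CPM before and at 3.37 and 3.74 CPM after 1 h, without passing (log2 fold change 0.67, SE 0.29, adjusted p = 0.168 by edgeR). Both SFN calls were lost when either library of WT SFN isosmotic was left out (0 genes called), Irf7 was lost without replicate 1 of WT SFN 1 h (adjusted p = 0.058) and Ifit3 without replicate 2 (adjusted p = 0.0574), each leaving 1 gene. In turn, 5 genes passed without replicate 2 of Nrf2-/- SFN 1 h, with 15.7% of all genes called, the added ones being Isg15 (0.65), Irf1 (-0.62) and Bst2 (0.47).

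After 6 h, the effectors Eif2ak2, Ifit1 and Isg15 fell in DMSO cells together with Irf1 and Stat2, 5 of the 9 genes, while 45.9% of all genes tested changed and 22% fell. Eif2ak2 was at 50.7 and 42 CPM in isosmotic cells and at 17.6 and 18.6 CPM at 6 h, with no overlap (log2 fold change -1.35, SE 0.18, adjusted p = 3.33e-05 by edgeR). Ifit1 was at 0.869 and 0.741 CPM at 6 h, or 30 and 24 counts (log2 fold change -1.74, SE 0.35, adjusted p = 9.28e-04 by edgeR). Isg15 was at 3.42 and 3.95 CPM (log2 fold change -1.29, SE 0.35, adjusted p = 0.00752 by edgeR), below both isosmotic libraries, and it lost its call without replicate 1 of WT DMSO 6 h (adjusted p = 0.0616).

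Among the transcription factors, Irf1 was at 8.4 and 10.5 CPM at 6 h (log2 fold change -1.05, SE 0.19, adjusted p = 3.99e-04 by edgeR) and Stat2 at 14.7 and 17.8 CPM (log2 fold change -0.59, SE 0.13, adjusted p = 0.00142 by edgeR). Stat2 thus lay above its isosmotic level at 1 h and below it at 6 h. Ifit3, whose promoter also holds the ISRE core, was at 11.1 and 12.1 CPM at 6 h, above both isosmotic libraries (log2 fold change 0.38, SE 0.24, adjusted p = 0.22 by edgeR). Irf9 (0.38), Bst2 (0.28) and Irf7 (-0.38) did not pass. With the 12 WT libraries alone 8 genes passed, with 57.6% of all genes called, and the 3 added ones, Ifit3 (0.41), Irf9 (0.41) and Bst2 (0.30), all rose.

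From 1 h to 6 h in DMSO cells, Ifit1 (-1.54), Eif2ak2 (-1.48), Stat2 (-1.14) and Irf7 (-1.05) fell, 4 of the 9 genes, with 42.4% of all genes called (20.4% higher and 22% lower). The call of Irf7 was lost without replicate 2 of WT DMSO 1 h or of WT DMSO 6 h (adjusted p = 0.0648 and 0.0897 by edgeR). With the 12 WT libraries alone, where 54.4% of all genes were called, 7 of the 9 passed, as Isg15 (-0.75) fell and Ifit3 (0.46) and Bst2 (0.26) rose. Without replicate 2 of Nrf2-/- SFN 1 h, Isg15 (-0.76) and Bst2 (0.24) were added, with 48.6% of all genes called. In SFN cells over the same interval these 4 genes fell and so did Isg15, by 1.13 for Ifit1, 1.38 for Eif2ak2, 1.36 for Stat2, 1.13 for Irf7 and 1.02 for Isg15 on the log2 scale (adjusted p from 1.07e-06 to 0.0325 by edgeR), with 42.6% of all genes called. Isg15 lost its call without any 1 of the 4 libraries, and 3 genes were left without WT SFN 1 h replicate 2, WT SFN 6 h replicate 1 or WT SFN 6 h replicate 2. Ifit3 rose without replicate 2 of Nrf2-/- SFN 1 h (log2 fold change 0.50, adjusted p = 0.0407 by edgeR), with 49.2% of all genes called. The DMSO and SFN comparisons use separate libraries.

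Against isosmotic SFN cells, 4 of the 9 genes changed at 6 h, with 47.6% of all genes called (24.7% higher and 22.9% lower). Ifit3 rose from 2.44 and 2.78 CPM to 7.52 and 9.56 CPM (log2 fold change 1.70, SE 0.26, adjusted p = 8.73e-05 by edgeR). The isosmotic libraries of this comparison also enter the isosmotic SFN comparison, with the opposite sign. Stat2 fell from 34.6 and 38.5 CPM to 12.9 and 13 CPM (log2 fold change -1.50, SE 0.13, adjusted p = 3.81e-07 by edgeR), Eif2ak2 from 39.9 and 45.8 CPM to 18.1 and 15.7 CPM (-1.34) and Irf1 from 15 and 14.2 CPM to 8.69 and 8.04 CPM (-0.80). In none of these 4 did the groups overlap, and the calls held in each of 12 settings. Bst2 rose too without replicate 2 of Nrf2-/- SFN 1 h (log2 fold change 0.54, adjusted p = 1.46e-05 by edgeR), with 54.2% of all genes called. The median of genes with under 1 kb of exons rose by 0.55 in this comparison and by 0.32 in DMSO cells, beside -0.072 and -0.061 for genes of 4 to 8 kb, the class of Eif2ak2, Stat2 and Irf9.

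**Figure D4:**
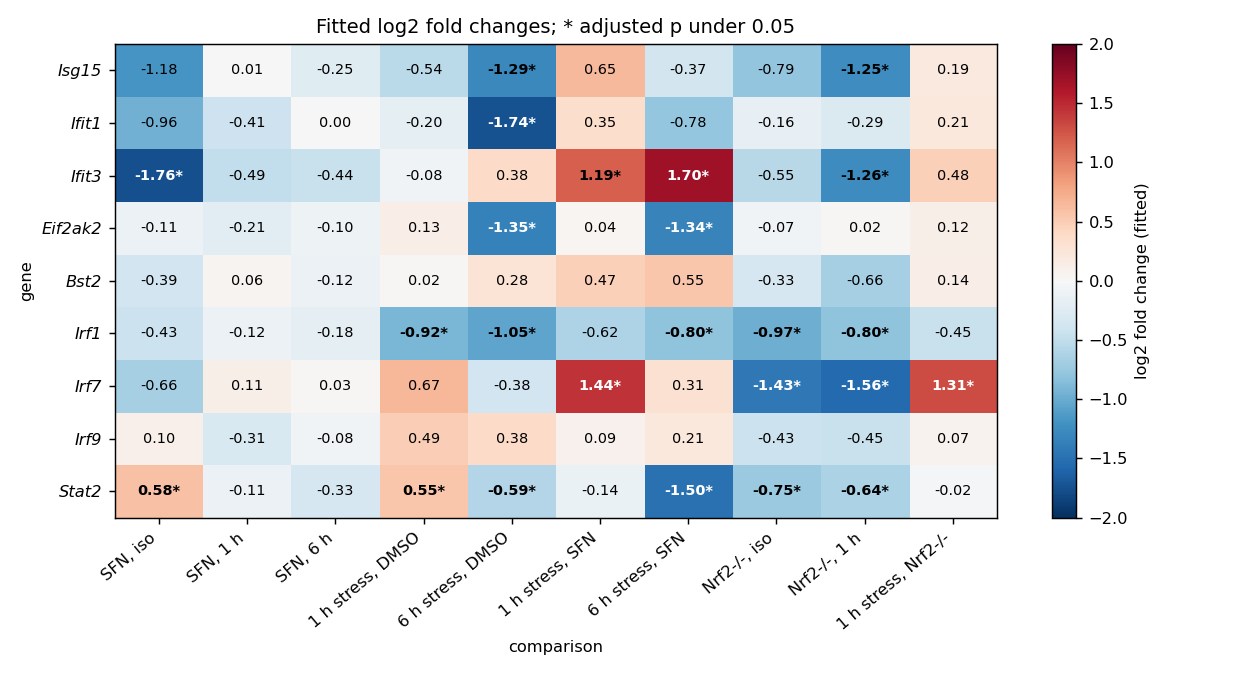
Fitted log2 fold change of each gene (rows) in 10 comparisons (columns), coloured from -2 (blue) to 2 (red), with an asterisk at an adjusted p under 0.05 by edgeR. Eif2ak2, Irf1 and Stat2 are blue in both 6 h columns, Ifit3 is blue with isosmotic SFN and red for stress after SFN, and the 9 genes are below 0 in the isosmotic Nrf2-/- column. The columns for isosmotic SFN and for WT stress after SFN share the WT SFN isosmotic libraries.

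Nrf2-/- and WT cells were compared within SFN treatment. In isosmotic medium the fitted values of all 9 genes lay below 0, and 3 of them fell, Irf7, Irf1 and Stat2, with 34.1% of all genes called and 18.4% lower. Irf7 was at 1.31 and 1.5 CPM in WT and at 0.37 and 0.672 CPM in Nrf2-/- cells (log2 fold change -1.43, SE 0.34, adjusted p = 0.00424 by edgeR). Irf1 was at 15 and 14.2 CPM in WT and at 6.29 and 8.62 CPM in Nrf2-/- cells (log2 fold change -0.97, SE 0.19, adjusted p = 0.00118 by edgeR). Stat2 was at 21 and 22.4 CPM in Nrf2-/- cells (log2 fold change -0.75, SE 0.12, adjusted p = 2.69e-04 by edgeR), below the WT SFN libraries and near the 23.8 and 25.2 CPM of WT DMSO isosmotic. Ifit3, at 2.36 and 1.24 CPM in Nrf2-/- cells, lay below its 8.05 and 9.68 CPM in WT DMSO isosmotic. Isg15 did so too, at 2.22 and 2.39 CPM against 9.27 and 8.82 CPM. These differences from WT DMSO cells were not tested. Without replicate 2 of Nrf2-/- SFN 1 h, 6 genes passed, adding Isg15 (-0.79), Irf9 (-0.44) and Bst2 (-0.33), with 42.3% of all genes called.

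After 1 h of stress, Irf7, Ifit3, Isg15, Irf1 and Stat2 were lower in Nrf2-/- than in WT SFN cells, 5 of the 9 genes, with 31.5% of all genes called and 16.2% lower. Ifit3 was at 5.9 and 6.07 CPM in WT and at 3 and 1.99 CPM in Nrf2-/- cells (log2 fold change -1.26, SE 0.26, adjusted p = 0.00204 by edgeR). Irf7 was at 4.04 and 3.62 CPM in WT and at 1.05 and 1.56 CPM in Nrf2-/- cells (log2 fold change -1.56, SE 0.30, adjusted p = 0.00112 by edgeR). Irf1 (-0.80) and Stat2 (-0.64) were lower as well, and the groups overlapped in none of these.

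Isg15 and Bst2 depended on the replicate. Isg15 was at 6.68 and 5.85 CPM in WT SFN 1 h and at 4.08 and 1.18 CPM in Nrf2-/- SFN 1 h (log2 fold change -1.25, SE 0.36, adjusted p = 0.016 by edgeR). Its value was -0.62 without replicate 2, no longer called, and -2.39 without replicate 1. Bst2 was at 75.4 and 77.4 CPM in WT and at 78 and 18.7 CPM in Nrf2-/- cells, so that its value of -0.66 (adjusted p = 0.309 by edgeR) became 0.03 without replicate 2 and -2.02 without replicate 1. Eif2ak2 (0.018) turned to -0.36 without replicate 2 and to 0.33 without replicate 1, each past the threshold. With the 4 libraries of this comparison alone, 0 genes passed (adjusted p from 0.0514 to 0.243 for the 5 genes by edgeR). The share of all genes called was then 10.1%, beside 31.5% in the fit of all libraries.

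Within Nrf2-/- cells, 1 h of stress raised Irf7, 1 of the 9 genes, against 7.17% of all genes (4.36% higher and 2.81% lower). Irf7 went from 0.37 and 0.672 CPM to 1.05 and 1.56 CPM, or from 13 and 25 to 37 and 54 counts, with no overlap (log2 fold change 1.31, SE 0.34, adjusted p = 0.0326 by edgeR), and the call held in 6 of 10 settings. The call of Irf7 was lost without replicate 1 of Nrf2-/- SFN isosmotic, where its log2 value was 0.95, and without replicate 2 of Nrf2-/- SFN 1 h. Isg15 was at 0.19 in the fit, at 0.82 without replicate 2 of the stressed group and at -0.97 without replicate 1. Whether the 1 h effect differed between Nrf2-/- and WT SFN cells gave 0 genes by edgeR, 0 at an unadjusted p under 0.05 and 0 by DESeq2, against 0.123% of all genes by edgeR (0.0615% above and 0.0615% below 0). Without replicate 1 of Nrf2-/- SFN 1 h this difference was -1.61 for Isg15 and -1.70 for Bst2. Without replicate 2 it was 0.18 and 0.36.

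Other genes of the pathway were taken from lists that do not hold these 9. Among 38 tested type I effectors, SFN in isosmotic medium lowered 7 and raised 1, against 1.76% and 1.09% of all genes, and the median log2 fold change was -0.59 with genes near 0 counts at their bounds. Lgals3bp (-1.31), the chemokine Cxcl10 (-1.01) and Parp12 (-0.49) fell, and Znfx1 (0.56), which senses viral RNA, rose. Ifit3b, a near copy of Ifit3, went from 87 and 102 counts in the DMSO libraries to 22 and 26 after SFN, and the counts of such copies are uncertain since reads can be split between them. Usp18, the protease that removes Isg15 from proteins, fell by 1.87 (SE 0.38, adjusted p = 0.0135 by edgeR) with SFN and rose by 1.69 (SE 0.38, adjusted p = 0.0111) in the hour of stress that followed. Both values use the WT SFN isosmotic libraries with opposite signs, so that they are not independent.

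Among feedback and receptor genes, Socs1, an inhibitor of Janus kinases, had 713 and 708 counts in WT DMSO isosmotic and 70 and 48 after 1 h (log2 fold change -3.51, SE 0.21, adjusted p = 2.14e-07 by edgeR), and it had 457 and 396 counts at 6 h. Of 21 receptor and signalling genes, 12 fell and 2 rose at 6 h in DMSO cells (22% and 23.9% of all genes), among them the receptor subunits Ifngr1 (-2.25), Ifnlr1 (-2.15) and Il10rb (-1.60). In isosmotic Nrf2-/- cells 7 of the 21 were lower and 3 higher than in WT cells, beside 18.4% and 15.7% of all genes. Of 19 genes that sense nucleic acids, 11 fell and 1 rose at 6 h in DMSO cells, beside 22% and 23.9% of all genes. Tlr3 (-2.48), its adaptor Ticam1 (-2.30), Ifih1 (-1.82) and Mavs (-1.42) were among those that fell. Ifnab, the interferon gene with the most counts, had 0 in WT DMSO isosmotic, 27 and 15 at 1 h and 94 and 62 at 6 h, and the 21 ligand genes summed to at most 3.51 CPM in any library.

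**Figure D5:**
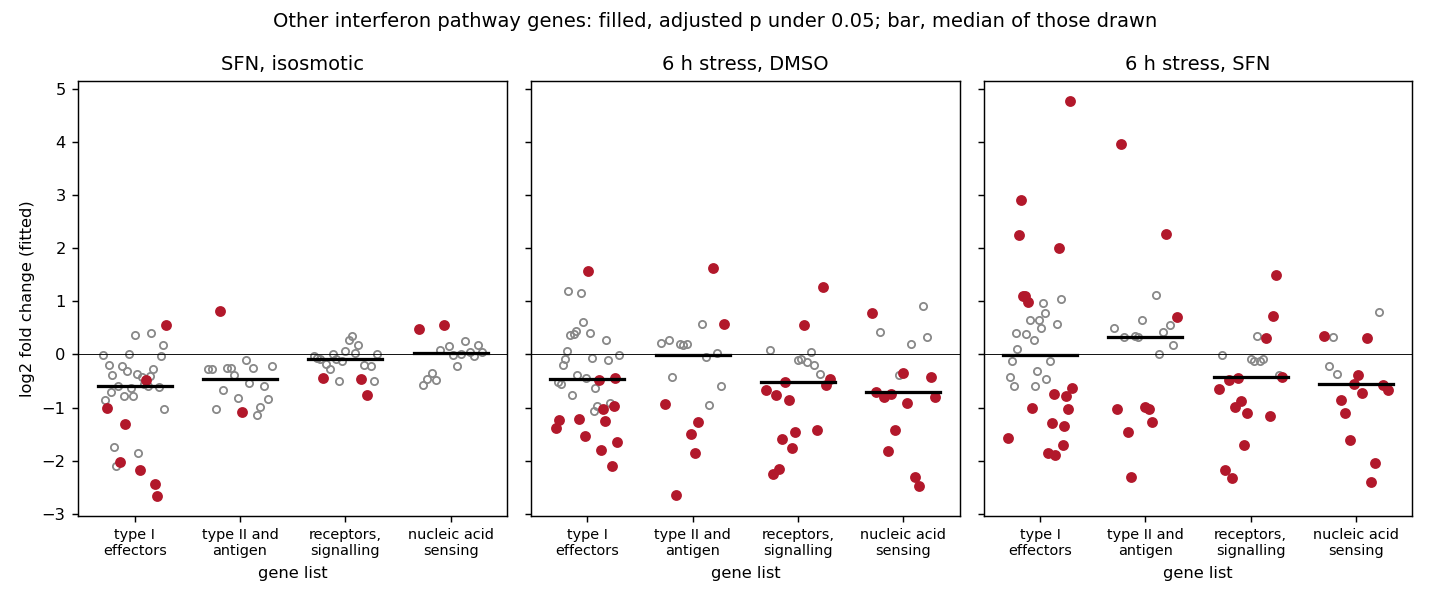
Fitted log2 fold changes of the other pathway genes by list in 3 comparisons, filled at an adjusted p under 0.05 by edgeR and open otherwise, with a bar at the median of the genes drawn; genes with at most 3 counts in both libraries of a compared group are not drawn. Most type I effectors lie below 0 for isosmotic SFN, and most receptor and sensing genes lie below 0 at 6 h.

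Of the other kinases of eIF2α, which share a target with Eif2ak2, Eif2ak4 fell by 0.64 at 6 h in DMSO cells (SE 0.11, adjusted p = 2.82e-04 by edgeR), and Eif2ak1 was higher in Nrf2-/- than in WT cells by 0.70 in isosmotic medium (SE 0.12, adjusted p = 2.65e-04). Of 19 type II and antigen presentation genes, 7 were lower and 2 higher in isosmotic Nrf2-/- than in WT cells, beside 18.4% and 15.7% of all genes. Tap2 (-2.44) and Igtp (-1.19) were among the lower and Cd274 (1.19) among the higher. Gbp3, a guanylate-binding protein, had 10 and 4 counts there (log2 fold change -8.05, SE 0.28, adjusted p = 3.73e-11 by edgeR). Aim2, a sensor of cytosolic DNA, had 328 and 439 counts in isosmotic Nrf2-/- cells and 0 in both WT SFN isosmotic libraries, at least 155-fold higher against a floor of 3 counts in each library. Of 13 NF-κB targets, 7 fell and 0 rose with SFN in isosmotic medium, beside 1.76% and 1.09% of all genes.

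Across the 16 libraries, Pearson's r of log2 CPM between pairs of the 9 genes ran from -0.48 for Eif2ak2 and Bst2 to 0.82 for Irf9 and Bst2. The tested genes most like each of them were seldom interferon genes: Mtln for Isg15 (r = 0.978), Fblim1 for Ifit1 (0.931), Plk2 for Ifit3 (0.949), Traf3ip2 for Irf1 (0.947), Acta1 for Irf7 (0.908), Fam189b for Irf9 (0.932), Ccsap for Stat2 (0.972), Nr2c1 for Eif2ak2 (0.985) and H2-D1, a class I antigen gene, for Bst2 (0.985). These values describe 16 libraries that share 8 groups and, for short genes, the difference between the Nrf2-/- SFN 1 h libraries.

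On GRCm38 (GENCODE M21), Irf7 (chromosome 7, 141262706 to 141266481) overlaps Phrf1 on the opposite strand, and Irf9 (chromosome 14, 55603571 to 55610030) overlaps Rnf31 on the same strand. Phrf1 was at 110 CPM in WT DMSO isosmotic libraries, far above Irf7, and its log2 fold change was 0.012 for 1 h of stress after SFN and -0.08 between isosmotic Nrf2-/- and WT cells (adjusted p = 0.978 and 0.562 by edgeR). Rnf31 rose after 1 h in DMSO cells (log2 fold change 0.66, adjusted p = 0.00296 by edgeR), where Irf9 had 0.49. Irf1 overlaps Gm17334 (0.598 CPM in WT DMSO isosmotic), and Eif2ak2 overlaps n-R5s29 and Gm26637, all on the opposite strand. Whether strand was used in counting is not given in the sources used here, so that reads of genes on opposite strands cannot be told apart. For Irf9 and Rnf31, on the same strand, a strand setting could not separate reads of the shared bases.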

How the data were processed

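RNA-seq of 16 mIMCD3 libraries was analysed. The authors deposited raw counts of reads per gene symbol, 1 table per library, without normalization. Their methods name Hisat2, mm10, Samtools and FeatureCounts, whereas the submitters' processing notes name Bowtie2, SAMtools and featureCounts. Versions, annotation and strand setting are not given in the sources used here, and 1 label calls the RNA that of primary cells. Groups and replicate numbers came from the sample titles. Lines without a gene name, 2 in one table and 3 in another, were left out.

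Counts were tested with edgeR 4.0.16 (R 4.3.3): TMM factors, filterByExpr, robust quasi-likelihood F-tests with 1 coefficient for each of 8 groups over all 16 libraries, and Benjamini-Hochberg adjustment over 19509 genes at a threshold of 0.05. CPM used TMM-scaled totals, and the SE was the absolute log2 fold change divided by the root of F. Log2 CPM for correlations used a prior count of 2. Exon lengths, the bases covered by any annotated exon of a gene, were found for 97.5% of tested genes. The fit was tested on simulated data first. A permutation test of 2 against 2 libraries cannot go below p = 0.333 and was not used.

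The 9 genes, the lists and the named genes (up to 4 called genes per list and comparison with a mean of at least 50 counts, largest change first; the most alike gene of 3 listed per member; overlapping genes) were chosen with earlier results of these data known. Ifit3b, Ifnab and the marker genes were named outside this rule, after their values were seen. Alternatives were DESeq2 1.42.0, size factors by RLE, an unfiltered table, a minimum of 10 counts per library, a replicate block, fewer libraries in the fit, and leaving out each library.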

Additional observations from a re-analysis of the deposited data

Results flagged for a closer look

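The SFN effect differed between isosmotic and stressed WT cells by an interaction test in edgeR for 5 genes of the pathway. Of all genes tested, 0.559% passed for 1 h and 0.759% for 6 h. Stat2 differed by -0.90 (log2, 6 h against isosmotic), Cxcl10 by 1.11 (6 h against isosmotic), Socs1 by 1.35, Gbp3 by -1.22 and Znfx1 by -0.77 (1 h against isosmotic). The call of Stat2 held in 9 of 16 settings, and Socs1 was near the threshold (adjusted p = 0.0495 by edgeR). The isosmotic SFN effect was 0.58 for Stat2, -1.01 for Cxcl10, -0.77 for Socs1, 0.81 for Gbp3 and 0.56 for Znfx1. The interaction contains the isosmotic effect with its sign turned, so that the direction of these differences is not independent of it, and both comparisons share the isosmotic libraries. With 2 libraries in each group, no single library could be tested as an outlier.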

How the results depend on the processing

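Counts of the 9 genes called changed with the libraries in the fit, which set the spread, the filter and the scaling together. With the 12 WT libraries alone, 5 genes were called for isosmotic SFN, 4 for 1 h in DMSO, 8 for 6 h in DMSO, 7 for 6 h against 1 h in DMSO, 5 for 1 h in SFN, and 3 and 2 for the interactions of SFN with 1 h and 6 h. Of all genes, 15.2%, 22.9%, 57.6%, 54.4%, 18.3%, 3.09% and 4.24% were called, in the same order. With only the libraries compared, the same counts were 4 for 1 h in DMSO, 8, 7, 5, 3 and 2, and there were 1 for SFN at 1 h, 6 for isosmotic Nrf2-/-, 0 for Nrf2-/- at 1 h and 0 for 1 h within Nrf2-/-. In that order, 21.7%, 60.1%, 65.6%, 15.9%, 2.23% and 2.53% of all genes were called, then 4.95%, 52.1%, 10.1% and 0.045%. DESeq2 called 2 in each SFN interaction, beside 1.95% of all genes for 1 h and 2.35% for 6 h. Without a filter, 4 were called for 1 h in SFN and 1 and 2 in these interactions, and at least 10 counts in every library left 0 for 1 h within Nrf2-/-. For these filter settings the shares of all genes are not given here. The cause of these changes was not tested.

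Leaving out 1 library at a time, the counts ran from 1 to 4 for isosmotic SFN, 0 to 0 for SFN at 1 h and at 6 h, 1 to 4 for 1 h in DMSO, 4 to 7 for 6 h in DMSO, 3 to 6 for 6 h against 1 h in DMSO, 0 to 5 for 1 h in SFN, 4 to 5 for 6 h in SFN, 3 to 6 for 6 h against 1 h in SFN, 3 to 6 for isosmotic Nrf2-/-, 4 to 8 for Nrf2-/- at 1 h, 0 to 5 for 1 h within Nrf2-/-, 0 to 3 and 0 to 2 for the interactions of SFN with 1 h and 6 h, and 0 to 2 for that of stress with genotype. The upper ends include leaving replicate 2 of Nrf2-/- SFN 1 h out of the spread, chosen after seeing the data. Without this library the share of all genes called rose in every comparison between WT groups. It went from 2.84% to 13% for isosmotic SFN and from 11.2% to 20.3% for 1 h in DMSO. Such upper ends cannot be read as specific to the interferon-stimulated genes. With other libraries left out, the shares of all genes are not given here. Values reversed for Isg15 (-0.97) and Bst2 (-1.24) at 1 h within Nrf2-/- without replicate 1 of the stressed group (0.82 and 0.83 without replicate 2), and for Eif2ak2 (-0.36) in Nrf2-/- against WT at 1 h without replicate 2 (0.33 without replicate 1). Over single genes, leaving out a library kept 686 results, made 31 pass and 36 fail and reversed 3, and the other settings kept 840, made 61 pass and 8 fail.

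Replicate numbers paired no samples (correlations of deviations from -0.08 to 0.04), and the replicate block left each count as it was, with 2 called for isosmotic SFN and 5 for 6 h in DMSO. In the 100 bases before the start alone, 2 genes held the ISRE core, 0 the form with 3 spacer bases, 1 GAS, 3 the NF-κB site, 0 the antioxidant element and 2 the NFAT5 core. With 13 to 155 counts of Irf7 and 21 to 130 of Ifit1 per library, counting error limits both. Of the counts from 1 to 10, 58% to 68.5% were even in each library. Whether both reads of a pair were counted was not tested, and independent fragments may be fewer than the counts given here.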
